A study of Rattus norvegicus with 14 samples.

Results

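The Kcn genes encode the pore-forming and accessory subunits of potassium channels, and their expression was followed here in the choroid plexus (CP) of gonadectomized and sham-operated rats. Members were all genes whose current symbol begins with Kcn, after the accession of each probe had been matched to a gene symbol, and a gene with more than 1 probe was read from its brightest probe. This gave 90 of the 15154 named genes on the arrays, with 117 probes, and 24 genes had more than 1. All probes of a gene shared the sign of the difference after gonadectomy for 10 of these 24 in females and 13 in males. For 15 genes, 2 or more probes were well above background on all arrays, and these probes shared the sign for 6 in females and 8 in males. The gene table holds 97 Kcn symbols, and 7 of them had no named probe, among them the pseudogenes Kcnk16-ps1 and Kcnk6-ps1.

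The tissue was the CP of both lateral ventricles from Wistar rats operated on at 2 months of age and sampled 2 weeks later. Groups were 3 arrays of sham-operated females, 3 of ovariectomized (OVX) females, 4 of sham-operated males and 4 of orchidectomized (OOX) males, all of the same strain and with no further agent named in the labels. Each array held RNA pooled from 3 animals. The labels speak of 3 pools per group while the male groups have 4 arrays, and nothing says that no animal entered 2 pools, so that p-values measure the spread between arrays, which may be partly technical. Levels are log2 signals minus the median of all probes of the array, so that 0 is the median probe, and since probes differ in brightness a level is compared between arrays and not between genes.

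Potassium channels set the resting membrane potential of most cells. In the CP epithelium, which secretes cerebrospinal fluid (CSF), they recycle the potassium that the sodium pump brings in across the apical membrane and carry potassium out of the CSF. Inward rectifiers (Kcnj) hold the membrane near the potassium equilibrium potential. Voltage-gated subunits (Kcna to Kcnd, Kcnh and Kcnq) open on depolarization. Silent subunits (Kcnf, Kcng, Kcns and Kcnv), counted below with the pore-forming voltage-gated ones, modify such channels, and accessory subunits (Kcnab, Kcne and Kcnip) tune them. Two-pore-domain channels (Kcnk) carry background current, and Kcnma, Kcnmb, Kcnn and Kcnt channels respond to calcium or sodium inside the cell.

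Most members were measured in every group. By the call that the scanner software makes for each spot, 58 of the 90 were well above background (measured) on all 14 arrays and 27 on some, while 5 (Kcna10, Kcng4, Kcnh8, Kcnj15 and Kcnk15) were so on no array. Of all 15154 named genes, 11421 were measured on all arrays, 2385 on some and 1348 on none, so the Kcn genes were less often measured throughout. By role, all arrays measured 25 of 38 pore-forming voltage-gated subunits, 9 of 13 accessory subunits and regulators, 9 of 15 inward rectifiers, 8 of 13 two-pore-domain channels and 7 of 11 calcium- and sodium-activated channel genes. The number measured on every array of a group was 59 in sham females, 73 in OVX females, 61 in sham males and 67 in OOX males. Over all 15154 named genes it was 11634, 12456, 11760 and 12176 in the same order. The share of spots well above background was 79.7% to 82.7% on the sham female arrays and 85.3% to 87.2% on the OVX arrays, and the lowest level so called was -4.28 to -3.75 on the former and -4.80 to -4.63 on the latter.

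**Figure D1:**
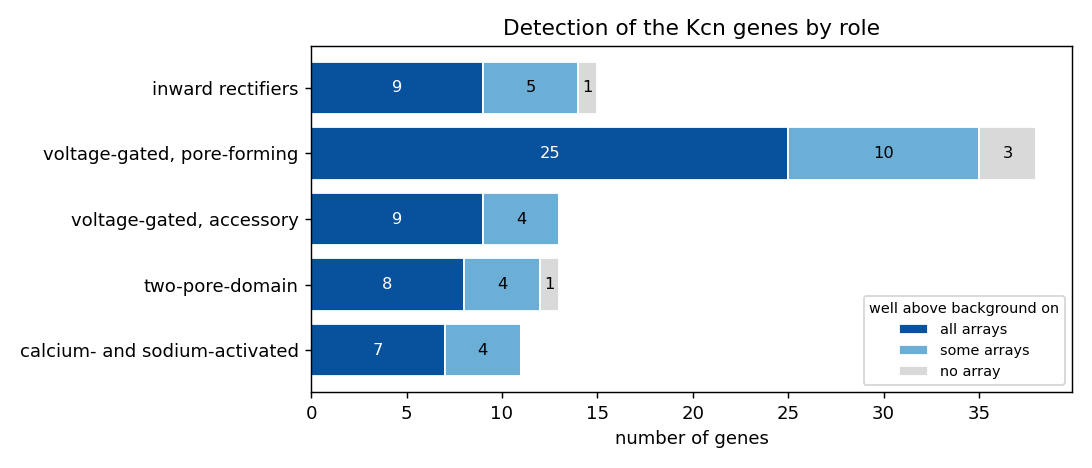
Number of Kcn genes (horizontal axis) in each role that were well above background on all 14 arrays, on some or on none. The dark segments add up to 58 genes, the light blue ones to 27 and the grey ones to 5.

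All 15 markers of CP epithelium, Kcnj13 among them, were well above background on every array. The arrays lay on 5 slides. Scanning took 2 days, day 1 for all sham females with OVX replicate 1 and day 2 for the remaining arrays, and 1 slide held both female groups (sham replicate 3 with OVX replicate 1). Sham females and sham males shared no slide and no scan day. The summed signal of 19 neuron markers varied within groups, from 46.5 to 117 times the array median in sham females, 47.6 to 75.2 in OVX females, 36.7 to 240 in sham males and 45.2 to 129 in OOX males, and was highest on sham male replicate 1.

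Kcnj14 encodes Kir2.4, a strongly rectifying member of the Kir2 branch of the inward rectifiers, described in motor neurons of brainstem cranial nerve nuclei. Its level was 5.84, 5.89 and 5.16 on the sham female arrays and 1.32, 0.86 and 0.82 on the OVX arrays, and every sham female array lay far above every OVX array. In males it was 1.32, 0.81, 1.25 and 0.46 on the sham arrays and 0.71, 1.24, 0.81 and 1.41 on the OOX arrays. Both male groups overlapped each other and the OVX group, so that sham females alone stood apart. The probe was well above background on all 14 arrays and saturated on none, and Kcnj14 had no other probe.

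The mean level fell from 5.63 ± 0.41 (SD, n = 3) in sham females to 0.9996 ± 0.27 (n = 3) in OVX females. As signal, the sham female arrays held 35.7 to 59.3 times the array median and the OVX arrays 1.77 to 2.49 times, and the fitted ratio was 24.7-fold (95% interval 16.3 to 37.6, adjusted p = 0.00506). On the slide shared by the female groups the difference was -3.84 on the log2 scale. With slide as a block, where the estimate rests on this pair of arrays, the adjusted p was 0.372. Without OVX replicate 2 it was 0.061, and by the methods' t-test 0.0754. Less RNA per cell and fewer cells of a type that makes it cannot be told apart in bulk tissue.

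In males the log2 difference of Kcnj14 was 0.08 (95% interval -0.48 to 0.64, adjusted p = 0.966), with 4 arrays per group. The male effect minus the female effect was 4.71 (95% interval 3.90 to 5.52, adjusted p = 0.000506), the largest of the 90 genes. The female effect in this contrast also runs along slide and scan day. With slide as a block, the male minus the female effect was 4.10 (adjusted p = 0.0433 by limma). Sham females exceeded sham males by 4.67 on the log2 scale (95% interval 4.10 to 5.24, adjusted p = 9.44e-06), a contrast in which sex cannot be told apart from slide and scan day. With slide as a block, which links these groups only through the gonadectomized arrays, it was 3.93 (adjusted p = 0.0646). OVX females differed from OOX males by -0.04 (95% interval -0.62 to 0.53, adjusted p = 1), and within the slide that held OVX replicate 3 and 3 OOX arrays the difference was -0.10.

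Some genes that mark hindbrain position were, like Kcnj14, higher in sham than in OVX females. Of the 23 genes listed (Hox, Meis, Irx, En and Gbx families), 12 were on the arrays. Their summed signal was 19.5 to 28.4 times the array median in sham females and 2.44 to 3.52 in OVX females. It was 2.18 to 8.67 in sham males and 2.16 to 3.59 in OOX males. A sum weighs its brightest members most, in sham females Meis1. The mean log2 level of the 12 was -2.63 to -2.20 in sham females and -3.93 to -3.57 in OVX females. In males this mean was -4.11 to -2.93 (sham) and -4.10 to -3.57 (OOX). Of the 12, 5 passed in OVX against sham females, all lower (Hoxa2, Hoxb4, Meis1, Irx2 and Irx5), beside 6.25% of all named genes (4.42% lower). The list was chosen with earlier results of these data known, and the study names Hoxa2 and Irx2 among its largest falls after OVX. The share that passed is therefore no independent result. Meis1, a homeobox partner of Hox proteins, had a mean level of 4.34 in sham females and 0.43 to 0.57 in the other groups. Well above background on every array were 7 of the 12 in sham females, 6 in OVX females, 3 in sham males and 5 in OOX males, and Gbx2 was so on no array of either female group. The summed signal of 11 fibroblast markers was 428 to 510 in sham and 246 to 376 in OVX females, and in males 225 to 582 (sham) and 326 to 489 (OOX). Sham male replicate 1 had a hindbrain sum of 8.67 and a Kcnj14 level of 1.32, but 1 array cannot show whether the 2 are linked. The part of these genes in the Kcnj14 result was not tested.

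Kcnj14 lies on rat chromosome 1 between Cyth2 and Grwd1, all on the minus strand. Its neighbours did not pass in either sex. The log2 differences were -0.32 in females and 0.18 in males for Cyth2 (an exchange factor for Arf GTPases), -0.0017 and -0.24 for Grwd1 (a ribosome assembly protein), and 0.06 and -0.15 for the next gene, Grin2d (an NMDA receptor subunit). The 250 bases before the RefSeq start of Kcnj14, the gene that changed, are shown with those of Kcnj13, the inward rectifier that marks CP epithelium and was bright in every group. Both are from GRCr8, minus strand, 5′ to 3′, at chr1:105437259-105437508 and chr9:95518987-95519236. Capitals mark matches, on either strand, to the estrogen receptor core motif AGGTCA, the androgen receptor core motif AGAACA, the CCAAT box CCAAT and the TATA box TATAAA.
Kcnj14: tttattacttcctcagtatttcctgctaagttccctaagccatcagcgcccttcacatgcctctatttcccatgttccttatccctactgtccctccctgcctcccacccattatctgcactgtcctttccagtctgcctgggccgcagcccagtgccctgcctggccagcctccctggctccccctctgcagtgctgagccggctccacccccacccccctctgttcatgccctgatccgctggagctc
Kcnj13: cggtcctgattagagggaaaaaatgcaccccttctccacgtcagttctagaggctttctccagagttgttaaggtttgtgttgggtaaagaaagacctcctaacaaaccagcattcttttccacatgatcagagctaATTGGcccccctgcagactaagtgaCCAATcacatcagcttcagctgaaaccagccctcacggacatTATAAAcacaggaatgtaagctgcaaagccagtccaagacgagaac
The Kcnj14 window held none of these letters and had a GC content of 59.6%. The Kcnj13 window (46.8% GC) held 3 matches, CCAAT at 88 bases and its reverse complement at 113 bases before the start and TATAAA at 46 bases. Such windows were found for 61 of the 90 genes (67 windows) and for 33469 starts in all. AGGTCA was in 4 Kcn windows (5.97%) and in 14.1% of all, AGAACA in 11 (16.4%) and 17.5%, CCAAT in 16 (23.9%) and 34%, and TATAAA in 2 (2.99%) and 12.9%. Median GC was 59.6% in Kcn windows and 51.2% in all, and no match says only that these letters are not in this window.

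In females 4 of the 90 Kcn genes passed an adjusted p under 0.05, all of them lower after OVX, beside 6.25% of all named genes (4.42% lower). Kcnj14 was the only one of the 4 that any OVX array measured. Kcnn2, a small-conductance calcium-activated channel (SK2), was at -3.12, -4.32 and -3.96 in sham and at -6.57, -5.68 and -5.55 in OVX females, which did not overlap. Only 1 sham array of 3 and none of the OVX arrays measured it above background, so no fold is given (adjusted p = 0.0401). In males it was well above background on 1 of 4 arrays in each group, at -6.54 to -3.79 in sham and -6.39 to -3.70 in OOX.

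Kcna10 and Kcnk15 were well above background on no array, so no fold is given for them. Kcna10, a cyclic nucleotide-sensitive voltage-gated channel, was at -5.90, -6.28 and -6.02 in sham and -6.88, -6.93 and -6.87 in OVX females (adjusted p = 0.0401). Kcnk15 (TASK-5), a two-pore-domain subunit, was at -5.77, -6.17 and -5.88 in sham and at -6.77, -6.77 and -6.74 in OVX females (adjusted p = 0.0401). In both genes the OVX arrays sat in a narrow range below the sham arrays. Dim genes as a whole showed the same direction, for of the 1348 genes on the arrays that no array measured, 495 passed and 480 of those were lower, with a median log2 difference of -0.68. The calls of Kcnn2, Kcna10 and Kcnk15 were also lost with quantile normalization, normexp background correction or all groups in 1 fit. Left out in turn, sham female replicate 1 or 3 or OVX replicate 1 or 3 reduced the count of 4 to 1, Kcnj14, OVX replicate 2 reduced it to 0, and without sham female replicate 2 the count was 5, with Kcnmb1, a subunit of BK channels that no array of either female group measured.

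**Figure D2:**
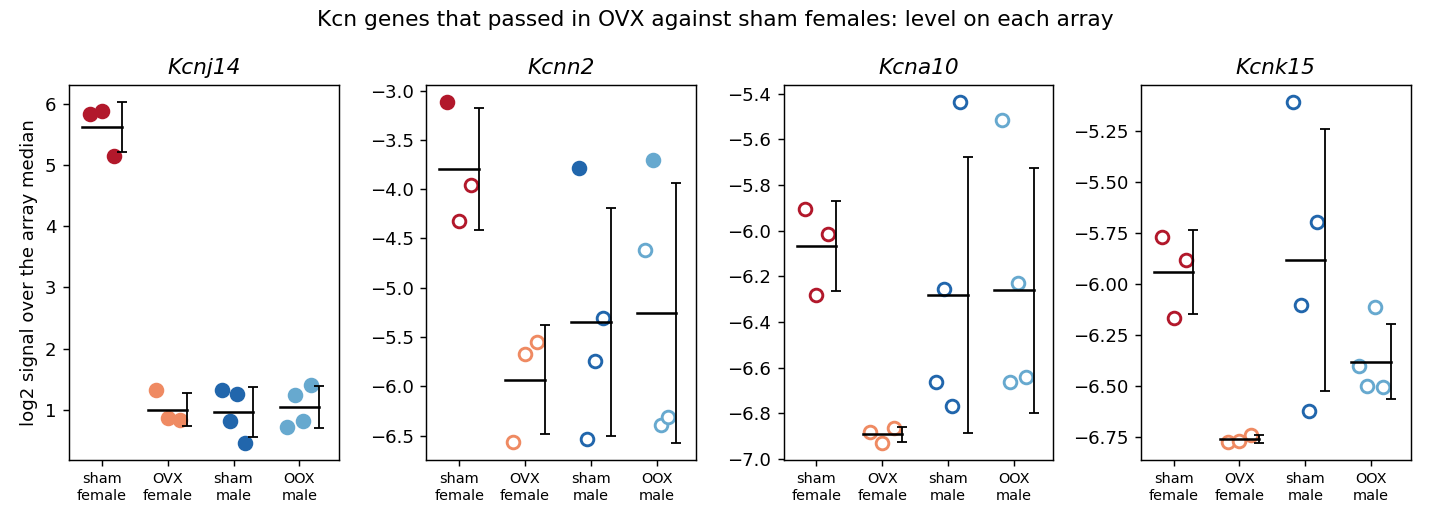
Level (log2 signal over the array median) of the 4 Kcn genes that passed in OVX against sham females, on each of the 14 arrays by group. Filled circles are well above background and open circles are not, black lines are group means and bars are SD, and the vertical scales differ. Kcnj14 is filled throughout, with sham females at 5.16 to 5.89 and all other arrays at 0.46 to 1.41.

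The other 86 members did not pass in females. The median log2 difference of the 90 genes was -0.10, beside -0.07 for all named genes, with 41 above 0 and 49 below. At an unadjusted p under 0.05 there were 18, which is 20% of the 90, beside 20% of all named genes, 11 of them higher. Groups did not overlap for 21 (14 higher, 7 lower), beside 27.7% of all named genes (11.5% higher, 16.2% lower). At the thresholds that the methods use, an unadjusted p under 0.05 with a fold above 1.5, limma gave 11 (6 higher, 5 lower), beside 13.9% (5.97% higher, 7.96% lower). The medians by role were -0.19 for inward rectifiers, -0.17 for pore-forming voltage-gated subunits, 0.29 for accessory subunits and regulators, -0.09 for two-pore-domain channels and 0.08 for calcium- and sodium-activated channel genes.

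Apart from Kcnj14, the members that every array measured and that had the largest moderated statistic in females did not pass the adjusted threshold. Kcnk16 (TALK-1), a two-pore-domain channel known from pancreatic islets, was at 1.098, 1.48 and 1.90 in sham and 2.73, 2.10 and 2.56 in OVX females. The groups did not overlap, and the log2 difference was 0.97 (SE 0.26, adjusted p = 0.0783). In males the order was the other way, with 1.66, 2.46, 2.85 and 3.04 in sham and 1.68, 2.15, 1.31 and 2.55 in OOX, overlapping groups and a difference of -0.58 (SE 0.36, adjusted p = 0.794). With slide as a block the male difference was 0.49, the opposite sign. Its other 2 probes had log2 differences of 0.29 and 1.14 in females and of -0.96 and -0.78 in males. The male minus the female effect was -1.55 (SE 0.50, adjusted p = 0.31) and did not pass, and the pseudogene Kcnk16-ps1 may share its signal.

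Kcnk12 (THIK-2), another two-pore-domain subunit, was at 4.80, 4.37 and 4.72 in sham and 4.17, 4.20 and 3.96 in OVX females, a difference of -0.52 (SE 0.16, adjusted p = 0.115). Kcnab1, an accessory beta subunit of Kv1 channels, was at 3.83, 3.88 and 4.04 in sham and 4.51, 4.30 and 4.77 in OVX females, a difference of 0.61 (SE 0.16, adjusted p = 0.0739). The OVX arrays lay below the sham arrays for Kcnk12 and above them for Kcnab1, and a second Kcnab1 probe differed by 0.94. With the mean over its probes Kcnab1 passed, at 0.78 (adjusted p = 0.0399). Kcnab3, another beta subunit, had -0.44 (SE 0.15, adjusted p = 0.154).

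Kcng2, a silent modifier of Kv2 channels, had a difference of 0.55 (SE 0.21, adjusted p = 0.182) in females. Kcnmb2, a beta subunit that inactivates BK channels, had 0.39 (SE 0.12, adjusted p = 0.128). Kcnmb3, another BK beta subunit, was at -4.36, -4.33 and -3.28 in sham and -2.87, -2.94 and -2.54 in OVX females. Its groups did not overlap, but only 1 of the 3 sham arrays measured it, and its difference was 1.21 (SE 0.32, adjusted p = 0.0752).

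Of the other 8 inward rectifiers that every array measured, none passed in females, and the 7 unsaturated ones had log2 differences from -0.34 (Kcnj3, a G-protein-gated rectifier) to 0.46 (Kcnj5, its partner). Kcnj8 (Kir6.1), the pore of the KATP channel of smooth muscle and pericytes, was at 1.45, 1.64 and 1.501 in sham and 1.23, 1.17 and 1.502 in OVX females, a difference of -0.23 (95% interval -0.57 to 0.11, adjusted p = 0.397). Kcnj12 (Kir2.2), of the same Kir2 branch as Kcnj14, had -0.15 (95% interval -0.92 to 0.62, adjusted p = 0.815), and Kcnj4 (Kir2.3) had 0.27 (95% interval -1.12 to 1.67, adjusted p = 0.817). The interval of Kcnj4 includes changes of 1 log2 unit in either direction. Kcnj2 (Kir2.1), the remaining member of the branch, was well above background on 2 of the 14 arrays, 1 sham female and 1 OOX.

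In males no Kcn gene passed, beside 0.0858% of all named genes (13 genes), and the lowest adjusted p among the 90 was 0.365. The methods' t-test, after Benjamini-Hochberg adjustment, also gave 0. At an unadjusted p under 0.05 limma gave 10 (6 higher, 4 lower), beside 6.87% of all named genes. Groups did not overlap for 5, beside 3.99% (2.44% higher, 1.56% lower): Kcne1, Kcnj1, Kcnj9 and Kcns2 were higher on all OOX arrays and Kcnip3 was lower. No male array measured Kcnj1, so that its order is one of values below background. The median log2 difference was 0.10, beside 0.02 for all named genes, and 59 of the 90 were above 0.

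Kcns2, a silent modifier of Kv2 channels, had the smallest p. It was at -3.01, -2.77, -2.53 and -2.87 in sham and -2.19, -2.01, -1.92 and -2.33 in OOX males, and every OOX array lay above every sham array. The difference was 0.68 (SE 0.16, adjusted p = 0.365). Kcne1, the accessory subunit that slows Kcnq1, was at -3.78, -3.53, -3.51 and -3.62 in sham and -3.14, -3.23, -3.07 and -3.19 in OOX males, a difference of 0.45 (SE 0.12, adjusted p = 0.479), with no overlap either. Kcnj9 (Kir3.3), a G-protein-gated rectifier, was at -1.46, -1.88, -1.66 and -1.57 in sham and -1.13, -1.24, -1.20 and -1.35 in OOX males, a difference of 0.41 (SE 0.14, adjusted p = 0.583). A second Kcnj9 probe, well above background on all 14 arrays, differed by 0.03 in males. Kcnip3 (KChIP3, also the repressor DREAM) was at 0.24, -0.01, 0.03 and -0.13 in sham and -0.25, -0.53, -0.14 and -0.25 in OOX males, a difference of -0.33 (SE 0.14, adjusted p = 0.648), while in females it was 0.29. None of these 4 passed, and the male minus female effect of Kcnip3 was -0.62 (SE 0.20, adjusted p = 0.307).

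Kcnh5 (Eag2), a voltage-gated channel of the ether-à-go-go family, had the lowest difference among the 90 in males. In males it was at -2.83, -3.82, -4.79 and -3.65 in sham and -5.49, -5.38, -5.84 and -4.36 in OOX. The sham arrays were mostly higher, the groups overlapped, and the probe was well above background on 3 of 4 sham and 1 of 4 OOX arrays. The difference was -1.495 (SE 0.44, adjusted p = 0.514), with an unadjusted p of 0.00898, and on the slide shared by the male groups it was -1.03. In females it ranged from -5.51 to -1.42 in sham and -4.84 to -1.80 in OVX, so that the spread within each group was wider than the difference of 0.55.

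**Figure D3:**
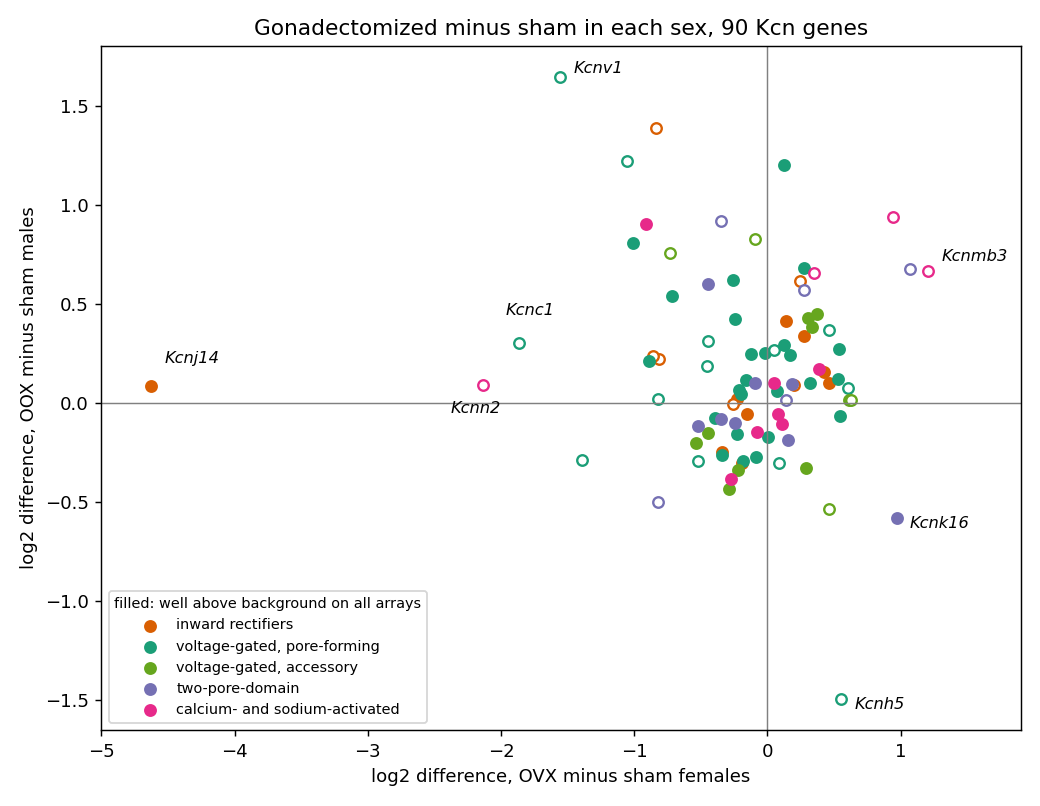
Log2 difference of each of the 90 Kcn genes after gonadectomy, OVX minus sham females on the horizontal axis and OOX minus sham males on the vertical axis, coloured by role. Filled circles are genes well above background on all 14 arrays. Kcnj14 lies alone at -4.63 in females and 0.08 in males.

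Tested across all arrays, the male minus the female effect passed for Kcnj14 alone among the 90, beside 0.251% of all named genes. At an unadjusted p under 0.05 there were 6, beside 10.3%: Kcnj14, Kcnn2 and Kcnv1 with the male effect above the female, and Kcne3, Kcnip3 and Kcnk16 with it below. Kcnv1, a silent subunit found in brain, had 3.20 (SE 1.46, adjusted p = 0.428). Kcne3, an accessory subunit of Kcnq1, had -0.99 (SE 0.46, adjusted p = 0.428). Between sham females and sham males Kcnj14 alone passed, beside 0.389%. Between OVX females and OOX males limma called 0 of the 90, beside 0.0528%, with 3 (Kcnh5 and Kcnk5 among them) at an unadjusted p under 0.05, beside 4.43%.

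The 11 potassium channel genes known from CP or its barrier function gave no call. By limma 0 of the 11 passed in either sex, with 1 at an unadjusted p under 0.05 in females (Kcne3), beside 20% of all named genes, and 4 in males (Kcne1, Kcne2, Kcnj1 and Kcnj13), beside 6.87%. Of these 4, Kcne2 and Kcnj13 were saturated and no male array measured Kcnj1. The median log2 difference was -0.19 in females and -0.08 in males. Kcnj13 (Kir7.1), the apical rectifier of CP epithelium, and Kcne2, an accessory subunit of its apical channels, were saturated on all 14 arrays, and no fold is given for either. Kcnj13 read 8.32 to 8.53 in sham and 7.80 to 8.56 in OVX females, and for males 8.27 to 8.49 (sham) and 7.94 to 8.28 (OOX).

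Kcnq1, which pairs with Kcne subunits in epithelia, was at 6.27, 6.08 and 6.32 in sham and 6.21, 5.88 and 5.88 in OVX females. The groups overlapped, and the difference was -0.23 (95% interval -0.59 to 0.13, adjusted p = 0.424). Kcna1 (Kv1.1) had -0.16 (95% interval -0.51 to 0.18, adjusted p = 0.557) in females and 0.12 (95% interval -0.24 to 0.47, adjusted p = 0.959) in males. Kcnk1 (TWIK-1) was at 7.92, 7.57 and 7.45 in sham and 7.46, 7.20 and 7.23 in OVX females, overlapping, with -0.35 (95% interval -0.75 to 0.05, adjusted p = 0.286), and had -0.08 (95% interval -0.51 to 0.35, adjusted p = 0.961) in males. Each of these 3 was well above background and unsaturated on all arrays, and the intervals exclude changes of 1 log2 unit. Kcnma1, the pore of BK channels, had -0.27 (95% interval -1.03 to 0.48, adjusted p = 0.653) in females and -0.39 (95% interval -0.98 to 0.21, adjusted p = 0.835) in males, with wider intervals. Its other probes differed by -0.36 and -0.56 in females, and by 0.24 and 1.04, the opposite sign, in males. Kcnk2 (TREK-1), a mechanically gated background channel, was at 0.64, -1.58, -0.96 and -1.09 in sham and -0.78, 1.996, -0.81 and -0.9996 in OOX males, where replicate 2 stood far above the other 3 arrays.

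Kcna3, Kcne3 and Kcnj1 of this list were near background. Kcna3 (Kv1.3), a channel of T cells and microglia, was well above background on 0 of 3 sham and 3 of 3 OVX arrays in females, at -4.45, -4.19 and -4.63 (sham) and -4.17, -4.08 and -3.19 (OVX), and on 2 of 4 sham and 3 of 4 OOX arrays in males. Kcne3 was measured on 0 of 3, 3 of 3, 3 of 4 and 3 of 4 arrays in the same order. The lowest levels called well above background differed between the female groups, as given above, and near-equal Kcna3 levels of -4.19 and -4.17 were called differently. Kcnj1 (Kir1.1, ROMK), the secretory channel of the kidney, was measured on 1 OVX array only. The female differences of Kcna3 and Kcne3, 0.61 (SE 0.29, adjusted p = 0.283) and 0.46 (SE 0.13, adjusted p = 0.0933), did not pass.

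**Figure D4:**
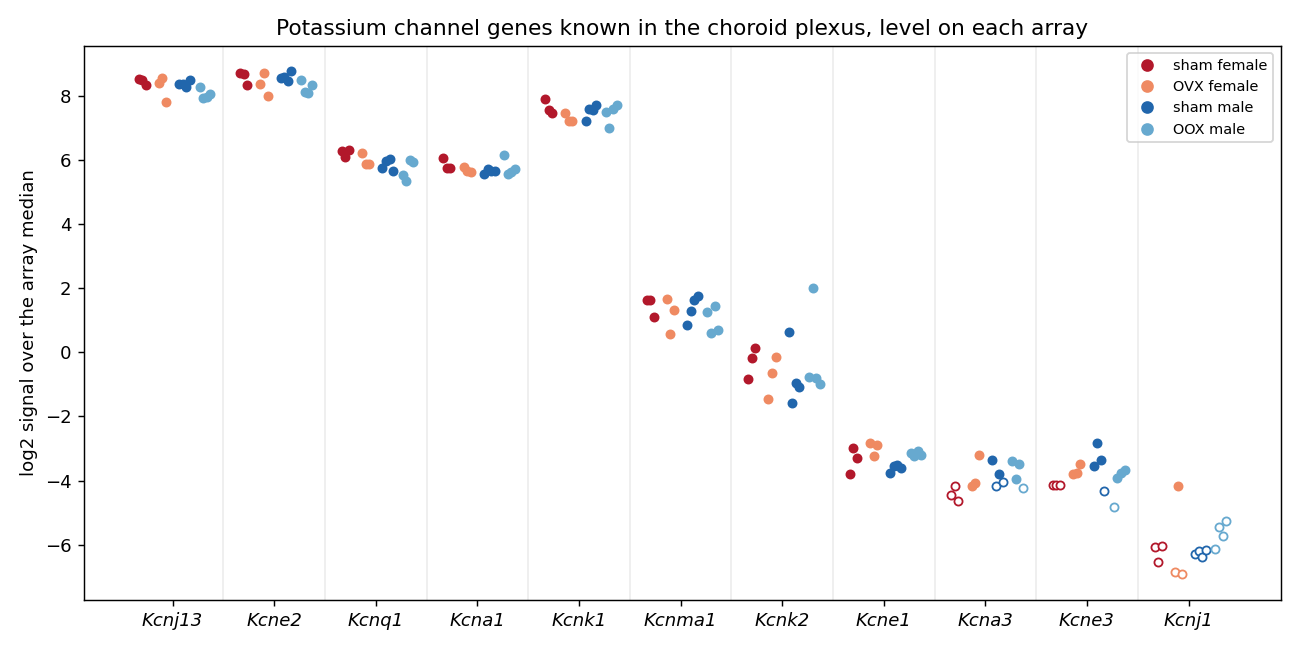
Level (log2 signal over the array median) on each array of the 11 potassium channel genes known in CP, coloured by group, filled where well above background. Kcnj13 and Kcne2 are saturated on every array, and Kcna3, Kcne3 and Kcnj1 have open circles.

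The Kcn genes varied more between arrays of 1 group than the median gene. The median within-group SD was 0.394 for the 90 Kcn genes and 0.267 for all named genes, and 0.302 and 0.226 among those that every array measured. Kcnc1 (Kv3.1), of fast-spiking neurons, had the widest spread among genes measured on at least 7 arrays, with an SD of 1.97. It was at 0.55, -5.54, -2.87 and -4.89 in sham males and -2.92, -1.29, -2.42 and -4.90 in OOX males, a range of 6.09 within sham males that covers every other array. Kcnd2 (Kv4.2), the A-type channel of dendrites, was at 2.21, -1.95, -0.996 and -2.30 in sham males and -1.42, 1.61 and 1.33 in sham females. Kcnip4, a partner of Kv4 channels, was at 0.02, -4.62, -3.24 and -4.9998 in sham males.

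Of the 10 widest among those measured on at least 7 arrays (Kcnc1, Kcna4, Kcnip4, Kcnd2, Kcnv1, Kcnc2, Kcnj16, Kcnh5, Kcnq3 and Kcnip2), 9 were highest among sham males on replicate 1, with Kcnv1 the exception. Kcnj6 (SD 1.87, measured on 5 arrays) and Kcnk18 (SD 1.74, on 6) had wider spreads than most of these. With no such limit 8 of the 10 widest were highest among sham males on replicate 1. These genes were picked for their spread over the same arrays, so that arrays far from the others are partly built into both counts. The share of all named genes highest among sham males on replicate 1 is not given, so neither count is read as a result about Kcn genes. Over all 14 arrays, 16 of the 90 Kcn genes were highest on sham male replicate 1, beside 5.36% of all named genes. The mean level of the 19 neuron markers was 2.05 on that array and -0.98 to -0.17 on the other sham male arrays. It was 1.35 on OOX replicate 2 and -0.53 to 0.45 on the other OOX arrays, and in females it was lowest on sham replicate 1 (-0.36) and OVX replicate 1 (-0.70). Their part in the spread of the Kcn genes was not tested. Kcnv1, at -3.69, -1.24 and -1.17 in sham and -5.31, -3.16 and -2.29 in OVX females, had a difference of -1.55 (SE 0.97, adjusted p = 0.407) in females and 1.65 (SE 0.90, adjusted p = 0.747) in males, so that neither passed.

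**Figure D5:**
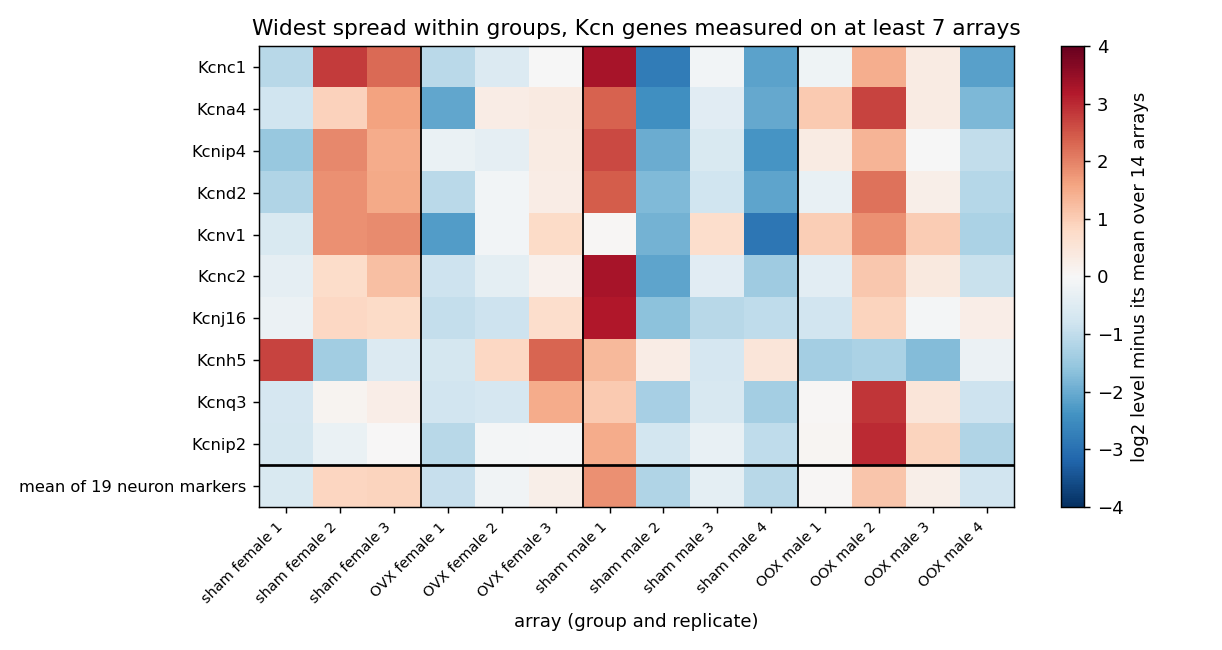
Level minus the mean of the gene over the 14 arrays (colour, log2 units) for the 10 Kcn genes with the widest within-group SD among those well above background on at least 7 arrays, with the mean of 19 neuron markers in the bottom row; columns are arrays by group and replicate. Sham male 1 is red for most rows, and sham male 2 and 4 are blue for most.

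Other lists of potassium handling gave few calls. Of 15 measured partner proteins of potassium channels and HCN channels (18 listed), 0 passed in either sex by limma, with 1 at an unadjusted p under 0.05 in females (20% of all named genes) and 0 in males (6.87%), and the median log2 differences were -0.20 and 0.13. Of 27 measured pumps and cotransporters (29 listed), 1 passed in females, Atp1a4, the sodium pump isoform of sperm, which no array measured, beside 6.25% of all named genes, and 0 in males, where 3 had an unadjusted p under 0.05, beside 6.87%. Atp1b1, a sodium pump subunit of CP epithelium, was saturated on all 14 arrays. Slc12a2 (NKCC1), the apical cotransporter of CP epithelium, had -0.24 (95% interval -0.53 to 0.05, adjusted p = 0.306) in females and -0.29 (95% interval -0.66 to 0.09, adjusted p = 0.765) in males.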

How the data were processed

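RNA of 14 CP pools was hybridized to Agilent 1-colour rat arrays (probe design on rn4, scanner software Feature Extraction 10.5.1.1). The deposited intensity of each spot was background-subtracted by that software. The authors also deposited a table of log2 values, median-centred in BRB-ArrayTools per the methods, which was used as an alternative.

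Of 42877 spots per array, 222 to 877 outlier spots were left out, spots of a probe were averaged, and log2 intensity minus the array median was used. Probes were named by accession through the RefSeq gene table. OVX or OOX was compared with sham by limma 3.58.1 (R 4.3.3) on the arrays of that sex, and effects between sexes on all 14 arrays, with Benjamini-Hochberg adjustment over 27517 features (15154 genes and 12363 unnamed probes) at 0.05. No fold is given for a gene that was saturated, dim in both groups or, as Kcnn2 in females, dim throughout 1 group and on most arrays of the other. The limma fit of gonadectomized against sham within each sex was tested on simulated arrays with known changes.

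Named were Kcnj14, Kcnh5, the genes that passed, up to 3 members per role with the largest moderated statistic in each sex, the CP channel list, inward rectifiers by detection, and partner genes that passed. Kcnmb1, Kcnmb3, Kcnv1, Slc12a2, the neighbours of Kcnj14 and genes of the spread ranking were chosen after their values were seen. The members and lists were chosen with earlier results of these data known. Alternatives were scaling, background correction (normexp, offset 50, on median signals, since the files used hold no mean-signal column), dim-probe filter, outlier spots kept, mean over probes, value table, the methods' t-test, 1 fit over all groups, blocks for replicate, slide and scan day, and leaving out each array. Some genes that the rule names are not reported here. Promoter windows came from RefSeq (GRCr8).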

Additional observations from a re-analysis of the deposited data

Results flagged for a closer look

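Kcnj14 had a male effect minus female effect of 4.71 on the log2 scale, a difference between the sexes that passed the test across all arrays.

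Among 68 groups of 4 male arrays checked over 34 genes, 2 held an array far from the others, and chance gives about 1 in 20 groups. Kcnab3 on sham male replicate 1 was at 0.91 while the other 3 sham male arrays were at 0.14 to 0.25, with a gap of 0.855 of the range of the group. Kcnk2 on OOX replicate 2 was at 2.00 while the other 3 OOX arrays were at -0.9996 to -0.78, with a gap of 0.925 of the range.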

How the results depend on the processing

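The count of 4 Kcn genes in females was 1 with quantile normalization, normexp background correction, the filter on dim probes, all groups in 1 fit or scan day as a block, 0 with slide as a block, 0 by the methods' t-test after adjustment, and 8 by that test at an unadjusted p with a fold above 1.5. Leaving out 1 array gave 0 to 5. The male count of 0 was 4 by the methods' t-test, unadjusted, with a fold. The Kcnj14 difference in females, -4.63, had an adjusted p of 0.0754 by the methods' t-test after adjustment. With slide as a block it was -3.84, and leaving out 1 array it was -4.86 to -4.50. Between arrays of the same replicate number, deviations from the group mean had correlations of 0.14, -0.02 and 0.10 in females. In males they were -0.09, -0.31, -0.01 and 0.14. The sample titles do not say whether these numbers pair arrays, and such correlations cannot decide it. With the replicate block the female count was 0 and the Kcnj14 difference -4.63 (adjusted p = 0.0732). With slide as a block in the comparisons between sexes, an alternative chosen after seeing the data, sham females against sham males gave 0 genes and 3.93 for Kcnj14. The male minus the female effect with this block gave 1 gene, Kcnj14, at 4.10. Scan day could not be fitted as a block in males, whose arrays were all scanned on 1 day. The causes were not tested. The small number of arrays and signals near background limit the precision.

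Log2 differences of single genes that took the opposite sign were as follows. In females with quantile normalization they were Kcnj13 0.00682. In females with normexp background correction they were Kcnh5 -0.0055, Kcne3 -0.00718 and Kcnj1 -0.054. In females with each gene averaged over its probes they were Kcnh3 0.018, Kcnh2 0.084, Kcnj5 -0.059, Kcnj9 -0.25 and Kcnj1 -0.28. In females with slide as a block they were Kcnh5 -0.18, Kcne2 0.027, Kcnip3 -0.072, Kcnj9 -0.017, Kcnj13 0.0701, Kcnj3 0.20, Kcnk1 0.0091, Kcnma1 0.57, Kcna1 0.048 and Kcnj1 -0.81. In females with scan day as a block they were Kcnh5 -0.98, Kcnma1 0.22 and Kcnj1 -0.63. In males with quantile normalization they were Kcna10 -0.15, Kcnn2 -0.15 and Kcna3 -0.19. In males with normexp background correction they were Kcna10 -0.24, Kcnn2 -0.22, Kcnc2 -0.22, Kcne1 -0.043, Kcnj11 -0.043, Kcnj5 -0.012, Kcnk1 0.0034, Kcna3 -0.17 and Kcnj1 -0.18. In males with each gene averaged over its probes they were Kcnab1 -0.14 and Kcnma1 0.30. In males with slide as a block they were Kcna10 -0.18, Kcnn2 -1.15, Kcnc2 -1.47, Kcnj11 -0.048, Kcnj3 0.031, Kcnk16 0.49, Kcnk12 0.10, Kcnk1 0.28, Kcnk5 0.34, Kcnk2 -0.53, Kcnmb4 -0.24, Kcna3 -0.48 and Kcnq1 0.076. Leaving out 1 array turned the sign of some, with ranges in females of Kcnh5 -0.27 to 1.77, Kcnj13 -0.35 to 0.033, Kcnk5 -0.041 to 0.36, Kcnma1 -0.52 to 0.037, Kcnj1 -0.66 to 0.71, in males of Kcnj14 -0.084 to 0.20, Kcna10 -0.23 to 0.30, Kcnn2 -0.43 to 0.61, Kcng2 -0.25 to 0.061, Kcnc2 -0.43 to 1.37, Kcnab1 -0.12 to 0.17, Kcnab3 -0.23 to 0.0295, Kcnk12 -0.20 to 0.011, Kcnk1 -0.18 to 0.066, Kcnk2 -0.11 to 1.06, Kcna1 -0.011 to 0.19, Kcna3 -0.049 to 0.23, and of -0.20 to 0.078 for Kcnj14 in OVX females against OOX males.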
